A study of Mus musculus with 3 samples.

Results

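The progesterone receptor gene Pgr, the membrane-associated progesterone receptor components Pgrmc1 and Pgrmc2, and 7 genes named as ovulatory targets or partners of the receptor (Zbtb16, Cited2, Cited4, Rgcc, Pparg, Nrip1 and Prkg2) are described here in mouse granulosa cells around ovulation. The genes were taken as a named list, and all 10 were found among the 24225 genes of the deposited table. Granulosa cells, the somatic cells that line the ovarian follicle, came from wild-type C57BL/6 females aged 21 to 28 days. All mice received 4 IU of equine chorionic gonadotropin (eCG), which makes follicles grow, and cells were punctured from follicles before (0 h), 4 h after or 12 h after hCG (human chorionic gonadotropin, 5 IU), a stand-in for the luteinizing hormone surge. RNA came from 3 mice per time and each time has 1 library, with no statement on whether RNA was pooled. No library lacks Pgr, so whether a gene depends on the receptor cannot be read from these data.

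Luteinizing hormone is known to switch on Pgr for a short time in granulosa cells of the follicle that is about to ovulate, and mice without a working Pgr do not release their oocytes. The protein is a nuclear receptor that, once bound by progesterone, sits on DNA with coactivators and turns on genes of proteolysis, vessel signalling and metabolism. It exists in a long form, PR-B, and a short form, PR-A, made from the same gene, and the table lists 1 Pgr transcript, so the forms could not be told apart. The PGRMC proteins are unrelated to it: they are haem-binding membrane proteins linked to rapid actions of progesterone.

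The unit is FPKM: fragments are divided by transcript length in kilobases and scaled to the mapped fragments of the library, so levels of different genes can be compared. The bounds in brackets are the deposited ones, which lie 2 standard deviations of the estimate from the value and stop at 0. They describe 1 library and not the spread between mice. Differences are log2 ratios, later time over earlier, taken after adding 1 FPKM to each level, which understates changes of low genes, and the range beside them takes the deposited bounds at their extremes. A gene is called higher or lower where this fold reached 2 and 1 or both of the compared libraries held 1 FPKM or more. This is a rule of size: without replicates no test was run.

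The steps between low values placed the depth at 11600000 to 13400000 fragments per library. The 3 libraries differed in summed FPKM, at 501561, 621365 and 472904 at 0, 4 and 12 h. Bringing them to their mean sum shifted the median of all genes by -0.28 from 0 to 4 h and by 0.36 from 4 to 12 h, and turned the share of higher genes among those called from 59.3% to 36.7% and from 38.0% to 70.7%. From 0 to 12 h the median moved by 0.08 and the share from 55.3% to 62.8%. Scaling to the sum of protein-coding genes gave shares of 42.5% (0 to 4 h) and 62.0% (4 to 12 h). Scaling by the median of gene ratios between libraries left them at 58.4% and 41.4%, with shifts of the median of -0.01 and 0.03. The shares thus depended on the type of scaling. Differences below are on the deposited scale. Values on the libraries brought to their mean sum, called the rescaled libraries, are given beside those they bear on. All 12 granulosa markers were present in each library, summing to 11936, 9277 and 6178 FPKM at 0, 4 and 12 h. Inha alone gave 6986, 7163 and 3742 of these. By the rule described above, 5 of the 12 were lower and none higher at 4 h than at 0 h. From 4 to 12 h 5 were higher and 1 lower, and from 0 to 12 h 5 were lower and none higher. Markers of other cells had lower sums, which were not constant. Single ones reached the level of some granulosa markers. The theca marker Cyp17a1 was at 93.6, 114 and 59.0 FPKM, beside 90.1, 113 and 69.4 for the granulosa marker Lhcgr. The 8 endothelial markers summed to 17.4, 41.5 and 15.8 FPKM, the 9 leukocyte markers to 57.0, 107 and 91.0, the 7 surface epithelium markers to 45.8, 113 and 67.0, and the 10 theca and stroma markers to 364, 430 and 415. The 10 oocyte markers summed to 219, 171 and 314 FPKM and the 5 smooth muscle markers to 114, 173 and 169. Only leukocyte markers included genes listed at 0 (1, 1 and 2 of 9 at 0, 4 and 12 h). On the deposited scale the endothelial, leukocyte, surface epithelium, theca and stroma, and smooth muscle sums were highest in the 4 h library, as were several of the genes below. With libraries brought to their mean sum, only the endothelial and surface epithelium sums stayed highest at 4 h. The leukocyte, theca and stroma, and smooth muscle sums were then highest at 12 h. The oocyte sum was lowest at 4 h on both scales. The part of these cells in the differences was not tested. In such bulk RNA a change in the share of a cell type and a change in RNA per cell cannot be told apart.

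Of the 10 genes, 4 h exceeded 0 h by the rule in 5 and fell below it in none: the 5 were Pgr, Cited2, Cited4, Rgcc and Prkg2. Among all 13240 genes with enough signal 10.2% were called higher and 7.03% lower. From 4 to 12 h 5 were lower and none was higher, namely Pgr, Cited2, Cited4, Prkg2 and Pparg, where 7.88% of 13242 genes were lower and 4.83% higher. From 0 to 12 h 9 of the 10 passed the filter, Pgr being under 1 FPKM at both times, and 3 were higher (Cited4, Rgcc and Prkg2) and none lower, where 3.16% of 13026 genes were higher and 2.55% lower. The median log2 fold of the genes that passed the filter was 1.44, -0.97 and 0.40 in the 3 comparisons, beside -0.01, 0.01 and -0.02 over all genes that did. The list was drawn up with results of these libraries known, so these counts describe it and test nothing. The comparisons share libraries: the 4 h library is in the first and second and the 0 h library in the first and the last, so a high 4 h value alone raises one difference and lowers the next. With libraries brought to their mean sum the same 5, 5 and 3 genes were called.

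**Figure D1:**
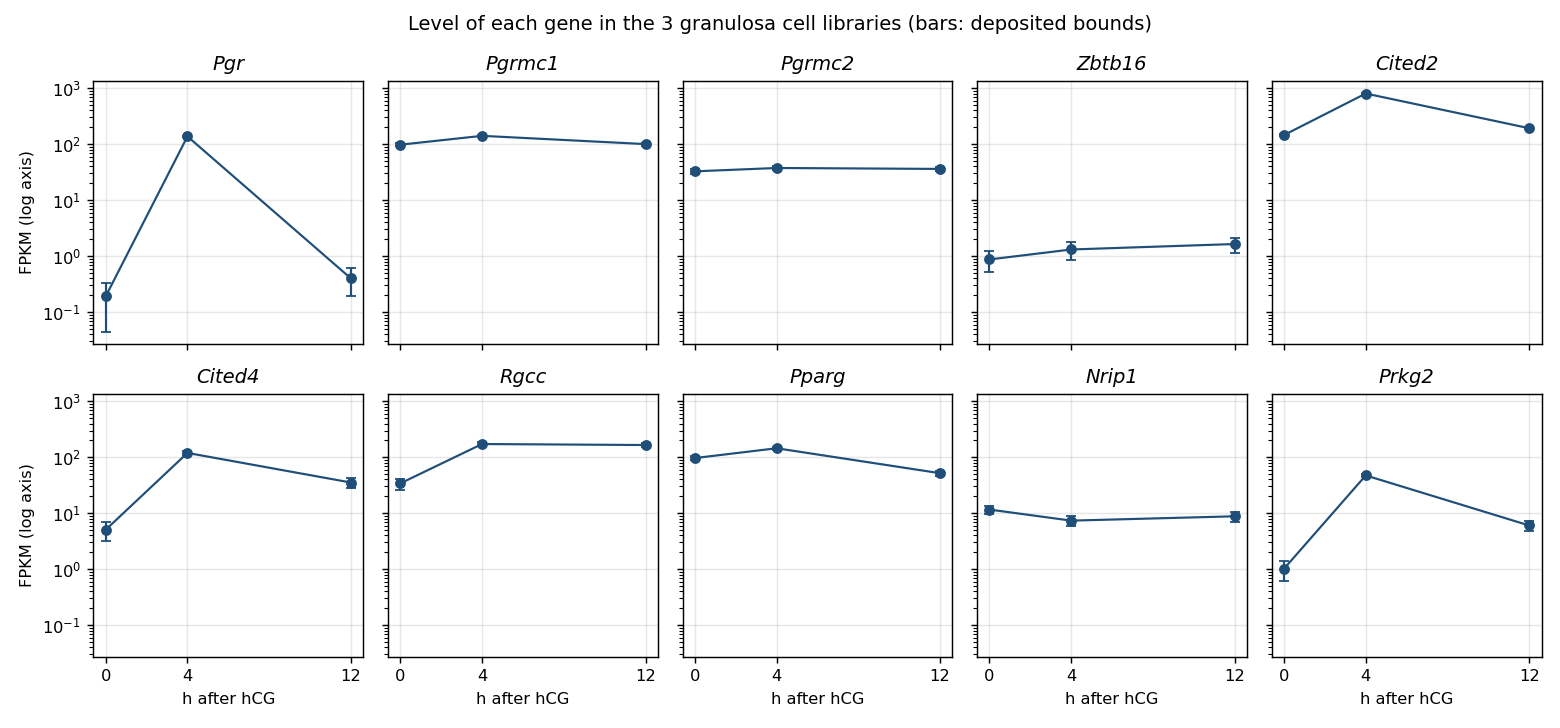
FPKM (log axis) of each gene against hours after hCG, 1 library per point, with the deposited bounds as bars. Pgr, Cited2, Cited4 and Prkg2 have their highest value at 4 h and are lower at 12 h, while Rgcc is at 172 FPKM at 4 h and 165 at 12 h.

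Pgr itself had the widest swing. The Pgr gene lies at chr9:8898900-8968611, plus strand (GRCm38). It was at 0.191 FPKM (0.0444 to 0.338) before hCG, at 138 (134 to 142) at 4 h and at 0.399 (0.191 to 0.606) at 12 h. The 4 h value stands far outside the bounds of both other libraries, whose own bounds overlap. The log2 fold was 6.86 (6.66 to 7.09) from 0 to 4 h, which ranked 44 of 13240 genes from the top, and -6.63 (-6.90 to -6.39) from 4 to 12 h, which ranked 43 of 13242 from the bottom. With so low a start the size depends on the added constant: with 0.1 FPKM in place of 1 the folds were 8.89 and -8.11, and with 5 FPKM 4.78 and -4.72. Of the 4 h gain in FPKM, 0.151% was left at 12 h. In level, Pgr lay above 38.7% of all genes at 0 h, above 97.3% at 4 h and above 42.2% at 12 h.

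At 4 h Pgr was level with genes that had been abundant all along. Its 138 FPKM had bounds overlapping those of Pgrmc1 (141 FPKM), which in turn overlapped those of Pparg (145). Above them stood Rgcc at 172 and Cited2 at 804, and below them Cited4 at 119, Prkg2 at 47.3, Pgrmc2 at 37.6, Nrip1 at 7.36 and Zbtb16 at 1.31, each with bounds apart from its neighbours. Before hCG the order was Cited2, Pgrmc1, Pparg, Rgcc, Pgrmc2, Nrip1, Cited4, Prkg2, Zbtb16 and Pgr, and bounds overlapped between Pgrmc1 and Pparg, between Rgcc and Pgrmc2, and between Prkg2 and Zbtb16. At 12 h Cited2 and Rgcc were again the highest and Pgr the lowest, and bounds of neighbours overlapped only between Pgrmc2 and Cited4 and between Nrip1 and Prkg2.

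The protein-coding genes nearest to Pgr in course were looked for among 10049 genes with at least 5 FPKM in 1 library, by the Euclidean distance between log2(FPKM + 1) values after each gene was centred on its own mean. With 3 libraries this measure rests on 3 values per gene. The nearest was Epgn, an EGF-like ligand, at 0.0506, 102 and 0.171 FPKM at 0, 4 and 12 h (distance 0.18). Next came Adcyap1, which encodes the neuropeptide PACAP, at 0.0402, 92.7 and 0.50 FPKM (0.47), and the matrix pentraxin Ptx3 at 1.18, 396 and 1.249 (0.62). The preproglucagon gene Gcg was at 60.3 FPKM at 4 h (0.68) and the neuropeptide gene Npy at 191 (0.70), and both were listed at 0 in the other libraries. Of the other genes of the list Prkg2 was the nearest, at rank 78 (distance 2.74), followed by Cited4 at rank 177 (3.47) and Cited2 at rank 232 (3.67).

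The promoters of the genes called higher at 4 h are shown to let their sequence be set beside their courses: Pgr, Cited2 and Cited4, whose level was lower again at 12 h, and Rgcc, whose level was not. The RefSeq table of GRCm38.p6 promoters matched 8 of the 10 genes; Zbtb16 and Prkg2 are named only. Each line gives the 250 bases before the start in that table, 5′ to 3′ on the gene's strand, at chr9:8899583-8899832 (plus strand) for Pgr, chr10:17722978-17723227 (plus) for Cited2, chr4:120666313-120666562 (plus) for Cited4 and chr14:79301636-79301885 (minus) for Rgcc. The RefSeq gene span of Pgr begins 683 bases before the first base shown, so the Pgr window lies inside that span, and 0 of its bases are in a GENCODE exon of the gene. The last 10 bases of the Cited2 and of the Rgcc window are in a GENCODE first exon. Capitals mark any match, on either strand, to the motifs named after the lines.
Pgr: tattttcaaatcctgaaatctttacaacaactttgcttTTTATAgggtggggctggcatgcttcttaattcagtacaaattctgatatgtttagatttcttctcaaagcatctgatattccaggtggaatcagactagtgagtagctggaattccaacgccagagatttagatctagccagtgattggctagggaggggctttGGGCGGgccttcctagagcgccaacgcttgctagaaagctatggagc
Cited2: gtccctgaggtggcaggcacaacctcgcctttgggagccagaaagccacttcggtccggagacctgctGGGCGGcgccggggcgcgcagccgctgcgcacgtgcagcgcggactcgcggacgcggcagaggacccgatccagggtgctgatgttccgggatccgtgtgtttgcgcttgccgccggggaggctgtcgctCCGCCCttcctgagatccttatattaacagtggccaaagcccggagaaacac
Cited4: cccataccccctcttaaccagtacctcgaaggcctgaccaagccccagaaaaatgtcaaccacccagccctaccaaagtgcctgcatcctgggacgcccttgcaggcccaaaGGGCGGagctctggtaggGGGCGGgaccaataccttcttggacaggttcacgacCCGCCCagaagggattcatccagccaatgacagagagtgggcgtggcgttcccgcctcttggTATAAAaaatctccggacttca
Rgcc: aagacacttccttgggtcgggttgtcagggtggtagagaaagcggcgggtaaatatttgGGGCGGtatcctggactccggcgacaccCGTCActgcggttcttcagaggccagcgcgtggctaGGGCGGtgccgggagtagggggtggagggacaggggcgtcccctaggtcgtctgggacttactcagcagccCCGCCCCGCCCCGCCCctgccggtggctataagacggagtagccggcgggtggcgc

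The motifs searched on both strands were the core of the progesterone response element (ACANNNTGT), its 6-base arm (TGTTCT), the cAMP response element (TGACGTCA), the first 5 bases of that element (TGACG), which lie within it, the GC box (GGGCGG) and the TATA box (TATAAA). Matches were counted over 11 promoters of 8 genes of the list, since Pparg has 3 annotated starts and Nrip1 2. The response element core was in 0 of 11 and is in 5.84% of all 32817 promoters of that length. The 6-base arm was in 1 of 11, that of Pgrmc1, and is in 16.1% of all. The cAMP response element was in 0 of 11 (1.55% of all) and its first 5 bases in 2 of 11, those of Pgrmc1 and Rgcc (17.7% of all). The GC box was in 9 of 11 and is in 32.7% of all promoters. Rgcc held 5 GC boxes, 3 of which overlap by 1 base. A TATA box was in 3 of 11 (12.4% of all). It began 22 bases before the start in Cited4, 29 bases before it in 1 Pparg window and 212 bases before it in Pgr. GC content was 43.6% in the Pgr window, 66.8% in Cited2, 58.0% in Cited4 and 66.8% in Rgcc, beside a median of 52.4% over all promoters. It was 69.6% in Pgrmc1, 67.2% in Pgrmc2, 82.4%, 63.6% and 40.8% in Pparg, and 51.2% and 73.6% in Nrip1. The GC box is made of G and C only, and its share over all promoters was not matched for GC content. The Pparg windows with 82.4% and 63.6% GC have 193 and 57 of their 250 bases in GENCODE exons of the gene. These are matches of letters in a short window and say nothing on binding.

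Pgrmc1 and Pgrmc2, the membrane-associated components, were present throughout. Their genes lie at chrX:36598193-36606079 (plus strand) and chr3:41066326-41083046 (minus strand) of GRCm38. Pgrmc1 was at 97.9 FPKM (91.5 to 104) at 0 h, 141 (133 to 149) at 4 h and 100.4 (93.9 to 107) at 12 h. The 4 h value lay above both others with bounds apart, and the log2 fold of 0.52 (0.35 to 0.69) did not reach the rule. With libraries brought to their mean sum this fold from 0 to 4 h was 0.22, and that from 4 to 12 h went from -0.49 to -0.10. Pgrmc2 was at 32.7 FPKM (29.9 to 35.5), 37.6 (34.5 to 40.6) and 36.1 (33.2 to 39.1). Its bounds overlapped at all 3 times, and its log2 fold from 0 to 4 h of 0.19 turned to -0.11 on the rescaled libraries, and that from 4 to 12 h from -0.05 to 0.33. Before hCG, then, Pgrmc1 was above 96.8% of all genes in level when Pgr was above 38.7%.

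Other receptors and relatives on the membrane were examined as a list of 8 genes. Of the 7 with enough signal 2 were lower at 4 h and none was higher, with a median log2 fold of -0.73. The 2 were Paqr7 and Paqr8, of the PAQR family of progesterone receptors at the cell surface. On libraries brought to their mean sum Nenf, a small secreted relative of the PGRMC proteins at 171, 103 and 129 FPKM, was lower too. Paqr8 was at 17.8, 4.07 and 6.72 FPKM at 0, 4 and 12 h and Paqr7 at 41.2, 14.9 and 23.8. Paqr9 was at 4.67, 4.06 and 1.27 FPKM, lower at 12 h than at 4 h on the deposited scale but not on the rescaled libraries. Paqr6 was at 4.60, 2.57 and 5.74 FPKM. From 4 to 12 h 1 of the 7 was lower and none higher, against 3 higher (Paqr6, Paqr7 and Cyb5d2) and none lower on the rescaled libraries. From 0 to 12 h 2 were lower, Paqr8 and Paqr9.

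Genes of progesterone supply were a list of 8, of which 4 were higher and 2 lower at 4 h (median log2 fold 0.78), and 3 were higher and 1 lower at 12 h than at 0 h. Akr1c18, whose enzyme inactivates progesterone by reducing it at carbon 20, was at 5.41, 16.2 and 19.2 FPKM at 0, 4 and 12 h. Srd5a1, the steroid reductase that also uses progesterone, was at 8.40, 3.51 and 8.24 FPKM. Star, which brings cholesterol to the enzymes, was at 14.3, 1583 and 83.8 FPKM, and Fdx1 and Cyp11a1, which act in the first step, at 182, 1890 and 485 and at 557, 1713 and 930. Hsd3b1, whose enzyme makes progesterone from pregnenolone, went the other way, at 3609, 1679 and 1402 FPKM, and was lower than at 0 h at both later times; it was the 1 gene of the list lower from 0 to 12 h. From 4 to 12 h 1 of the 8, Srd5a1, was higher and 2, Star and Fdx1, were lower. Counts in this list were equal on the rescaled libraries.

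Pparg, a nuclear receptor for fatty acid ligands that is known to be switched on through Pgr in ovulating follicles, was already abundant before hCG. The Pparg gene lies at chr6:115360879-115490404, plus strand (GRCm38). Its summed level was 96.5 FPKM (89.5 to 104) at 0 h, 145 (136 to 153) at 4 h and 51.8 (46.0 to 57.7) at 12 h. The 3 libraries had bounds apart, with the highest value at 4 h and the lowest at 12 h. The log2 fold from 0 to 4 h was 0.58 (0.39 to 0.77), short of the rule, and 0.27 on the rescaled libraries. From 4 to 12 h it was -1.46 (-1.71 to -1.23), called lower, and -1.07 on the rescaled libraries, still called. From 0 to 12 h it was -0.89 (-1.16 to -0.63), not called.

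Pparg was the only gene of the list with several isoforms in the table, 4 in all, and their shares differed at 12 h. NM_001308354 was at 92.3 FPKM (85.5 to 99.1) at 0 h, 144 (136 to 153) at 4 h and 39.1 (34.3 to 43.8) at 12 h, which is 95.6%, 99.8% and 75.4% of the gene. NM_001308352 was at 0.0581 FPKM (0 to 0.348), 0.00646 (0 to 0.212) and 12.7 (9.37 to 16.1), and so held 24.6% of the gene at 12 h. NM_001127330 was at 4.18 FPKM (2.16 to 6.21) at 0 h, 0.241 (0 to 0.854) at 4 h and was listed at 0 at 12 h. NM_011146, the transcript with its own first coding exon that makes the longer protein PPARG2, was listed at 0 at 0 and 12 h, with an upper bound of 0.209 FPKM, and at 0.00291 at 4 h. In GENCODE the transcripts matched to the first 3 isoforms share their first coding base at position 115439848 of chromosome 6 (GRCm38) and differ in upstream exons: the transcript matched to NM_001308354 starts at 115362292, and NM_001308352 and NM_001127330 are matched to 1 transcript that starts at 115360951. The PPARG2 transcript starts at 115422066. The split of fragments between isoforms that share most exons is an estimate, and the deposited bounds are the measure of its error here. By the main isoform alone Pparg was called lower from 0 to 12 h, with a log2 fold of -1.22.

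**Figure D2:**
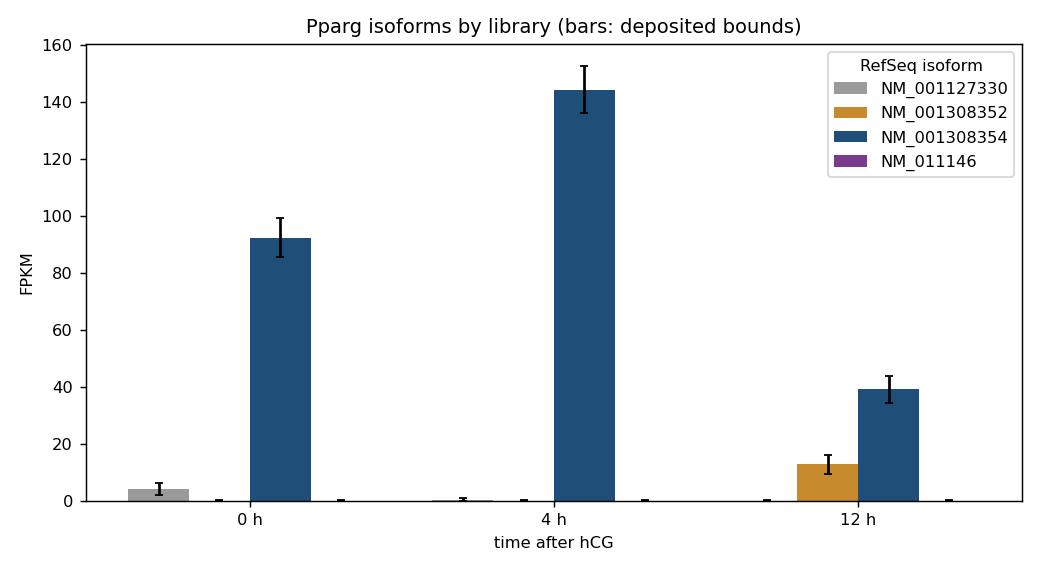
FPKM of the 4 RefSeq isoforms of Pparg in the 0, 4 and 12 h libraries, with deposited bounds as error bars. NM_001308354 is the tallest bar at each time, and NM_001308352 is visible only at 12 h, at 12.7 FPKM.

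Of 12 other PPARs, their RXR partners and genes known to respond to PPARG, 11 passed the filter. At 4 h 2 were higher and none lower (median log2 fold 0.31). Angptl4, an inhibitor of lipoprotein lipase, was at 28.7, 87.3 and 57.4 FPKM at 0, 4 and 12 h. Cpt1a, which takes fatty acids into mitochondria, was at 30.8, 77.97 and 42.7. The fatty acid carriers Fabp4 (27.4, 55.8 and 54.6 FPKM) and Cd36 (39.9, 79.6 and 39.2) were just short of the rule at 4 h, with log2 folds of 0.999 and 0.98. From 4 to 12 h only Cd36 was lower (log2 fold -1.01), and it was not called on the rescaled libraries. From 0 to 12 h none of the 11 was called, against 2 higher, Angptl4 and Fabp4, on the rescaled libraries. Endothelial cells also express Cd36 and Fabp4, and the endothelial marker sums given above were highest at 4 h; this was not tested further.

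Zbtb16 encodes PLZF, a zinc finger repressor known to respond to progesterone and to glucocorticoids. The Zbtb16 gene lies at chr9:48651797-48836225, minus strand (GRCm38). It was the lowest of the genes at 4 h, at 0.872 FPKM (0.514 to 1.23) at 0 h, 1.31 (0.864 to 1.76) at 4 h and 1.64 (1.14 to 2.15) at 12 h. The lowest value was at 0 h and the highest at 12 h, but the bounds of all 3 libraries overlap. The log2 fold from 0 to 12 h was 0.50 (-0.06 to 1.06) and no comparison was called.

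Cited2 and Cited4 encode small nuclear proteins without DNA-binding domain that attach to the coactivators CBP and p300. The Cited2 gene lies at chr10:17723228-17725674, plus strand (GRCm38). Cited2, which competes with HIF1A for them, was the most abundant gene of the list in every library. It was at 146 FPKM (138 to 153) at 0 h, 804 (786 to 822) at 4 h and 193 (184 to 201) at 12 h. All bounds lay apart: 12 h was a little above 0 h and 4 h was far above both. The log2 fold was 2.46 (2.35 to 2.57) from 0 to 4 h and -2.06 (-2.15 to -1.96) from 4 to 12 h, and 7.15% of the 4 h gain was left at 12 h. At 4 h Cited2 ranked 90 among all genes by level.

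Cited4 started low and ended higher than it began. The Cited4 gene lies at chr4:120666563-120667820, plus strand (GRCm38). It was at 5.06 FPKM (3.17 to 6.94) at 0 h, 119 (110.5 to 128) at 4 h and 35.3 (28.3 to 42.3) at 12 h, with bounds apart throughout. The log2 fold was 4.31 (3.81 to 4.95) from 0 to 4 h, rank 107 of 13240. It was -1.73 (-2.14 to -1.36) from 4 to 12 h and 2.58 (1.88 to 3.38) from 0 to 12 h, rank 64 of 13026, with 26.5% of the gain left. In FPKM Cited2 exceeded Cited4 at all times. The third gene of the family, Cited1, was at 19.6, 25.4 and 20.9 FPKM and was not called, so that before hCG Cited1 stood above Cited4 and at 4 h below it.

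Among 9 relatives and partners of the CITED proteins, 5 passed the filter and none of them was called in any comparison (medians 0.15, -0.27 and -0.14). Hif1a was at 98.2, 139 and 74.0 FPKM and its partner Arnt at 22.9, 21.5 and 19.5. Smad2, a mediator of TGF-beta signals, was at 10.7, 12.0 and 9.60 FPKM. The AP-2 genes Tfap2a, Tfap2b and Tfap2c and the homeobox gene Lhx2 stayed under 1 FPKM in each library.

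Nrip1 encodes RIP140, a ligand-dependent corepressor without which mouse follicles luteinize but do not release the oocyte. The Nrip1 gene lies at chr16:76287403-76373827, minus strand (GRCm38). It was at 11.6 FPKM (9.80 to 13.4) at 0 h, 7.36 (5.84 to 8.88) at 4 h and 8.80 (7.06 to 10.5) at 12 h. The 0 h and 4 h bounds lay apart, with 4 h the lower, and those of 12 h overlapped both. The log2 fold from 0 to 4 h was -0.59 (-1.08 to -0.13), short of the rule, and -0.87 on the rescaled libraries; from 4 to 12 h it was 0.23 (-0.30 to 0.76). It was the one gene of the list whose fold from 0 to 4 h was negative on the deposited scale.

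Of 14 other coregulators of nuclear receptors 12 passed the filter and none was called in any comparison or on the rescaled libraries. Their median log2 folds were 0.37, -0.22 and 0.03. Jdp2, which binds and assists the progesterone receptor, was at 3.06, 6.87 and 3.62 FPKM at 0, 4 and 12 h, and the ubiquitin ligase and coactivator Ube3a at 15.2, 27.4 and 14.1. The methyltransferase Carm1 was at 20.7, 31.0 and 26.6 FPKM and Ep300, which encodes p300, at 12.0, 15.9 and 11.02. The 12 chaperones and cochaperones that hold steroid receptors ready for hormone were also present and none was called on the deposited scale (medians 0.19, 0.00 and 0.26). Fkbp5, a cochaperone whose gene is a standard target of glucocorticoid and progesterone receptors, was at 84.9, 100.5 and 170 FPKM; its log2 fold of 0.99 from 0 to 12 h fell short of the rule and passed it on the rescaled libraries, as did its fold of 0.75 from 4 to 12 h. Hsp90aa1 was at 34.97, 43.4 and 56.0 FPKM, Fkbp4 at 187, 275 and 183, and Dnaja1 at 14.7, 20.8 and 18.7.

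Rgcc, a small regulator of the cell cycle also called RGC-32, had a course of its own within the list. The Rgcc gene lies at chr14:79288750-79301635, minus strand (GRCm38). It was at 34.0 FPKM (26.4 to 41.6) at 0 h, 172 (159 to 185) at 4 h and 165 (153 to 178) at 12 h. The 4 h and 12 h bounds overlap and both lie above 0 h. The log2 fold was 2.30 (1.91 to 2.76) from 0 to 4 h, -0.06 (-0.28 to 0.16) from 4 to 12 h and 2.25 (1.85 to 2.70) from 0 to 12 h, rank 78 of 13026. On the FPKM scale 95.0% of the gain was left at 12 h. The difference from 4 to 12 h became 0.33 on the rescaled libraries; its sign thus depends on the scaling.

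Prkg2 encodes the membrane-anchored cGMP-dependent protein kinase II and is known as a gene that needs Pgr in preovulatory granulosa cells. The Prkg2 gene lies at chr5:98929773-99037375, minus strand (GRCm38). It was at 1.02 FPKM (0.612 to 1.42) at 0 h, 47.3 (44.6 to 49.97) at 4 h and 6.03 (4.73 to 7.32) at 12 h. All bounds lay apart, with 12 h above 0 h. The log2 fold was 4.58 (4.23 to 4.98) from 0 to 4 h, -2.78 (-3.15 to -2.45) from 4 to 12 h and 1.801 (1.24 to 2.37) from 0 to 12 h, and 10.8% of the gain was left. It ranked 97 of 13240 genes from the top at 4 h and 178 of 13242 from the bottom at 12 h. The other cGMP-dependent kinase gene, Prkg1, was at 0.145, 0.297 and 0.269 FPKM and did not pass the filter.

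The genes that make, sense or degrade cGMP did not share 1 direction. Of 8 with enough signal at 0 and 4 h 2 were higher and 1 lower, and of 9 at 4 and 12 h 1 was higher and 2 were lower. Npr1, a receptor for natriuretic peptides that makes cGMP, was at 12.8, 435 and 14.4 FPKM at 0, 4 and 12 h, and the clearance receptor Npr3 at 0.282, 20.1 and 1.63. Nppc, which encodes the ligand of NPR2, was at 159, 15.0 and 32.5. Vasp, a known substrate of these kinases, was at 31.2, 57.2 and 33.3. From 0 to 12 h 1 of 9 was higher and 1 lower. On the rescaled libraries 2 were lower at 4 h.

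**Figure D3:**
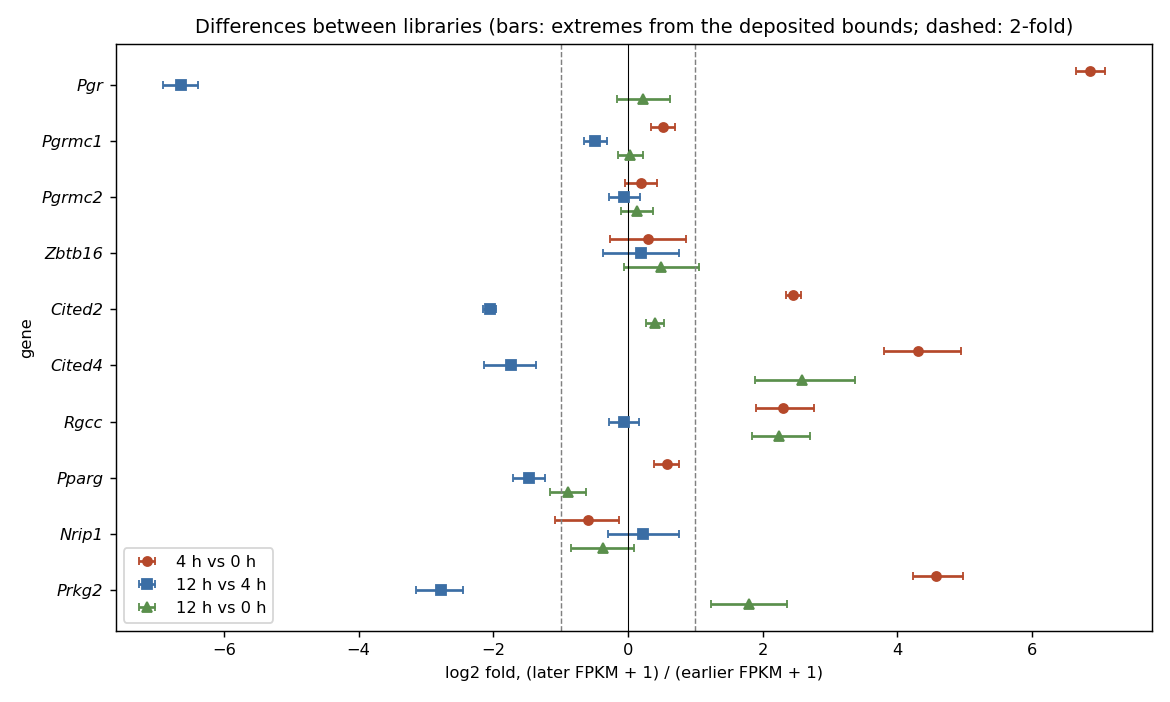
Log2 fold of FPKM + 1 for each of the 10 genes in the 3 comparisons, with bars from the extremes of the deposited bounds and dashed lines at 2-fold. Pgr is at 6.86 and -6.63 in the first and second comparison, and Rgcc is near 0 only from 4 to 12 h.

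A list of 12 further genes known as dependent on Pgr in ovulating follicles was set beside these. At 4 h 9 of the 12 were higher and none lower, with a median log2 fold of 2.01, where 10.2% of all genes were higher. From 4 to 12 h 1 was higher and 5 were lower (4 on the rescaled libraries), and from 0 to 12 h 7 of 11 were higher and none lower. The list was compiled with earlier results of these libraries known. Snap25, a protein of vesicle fusion, is listed at 0 in the 0 h library, reached 146 FPKM at 4 h and stood at 1.56 at 12 h. Adcyap1, given above, and the chemokine receptor gene Cxcr4, at 2.37, 314 and 21.7 FPKM, were likewise highest at 4 h. Edn2, the endothelin that contracts the follicle wall, differed from them: it was at 1.08, 7.83 and 29.6 FPKM and was the 1 gene of the 12 called higher from 4 to 12 h (log2 fold 1.79). Vegfa, at 59.3, 185 and 70.9 FPKM, was higher at 4 h, and Epas1, at 43.4, 41.4 and 54.4, was not. Of the 12, 6 were called neither way from 4 to 12 h. They include Adamts1, at 28.5, 112 and 120 FPKM, and Abcb1b, at 4.42, 14.0 and 15.7, both higher at 4 h than at 0 h.

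**Figure D4:**
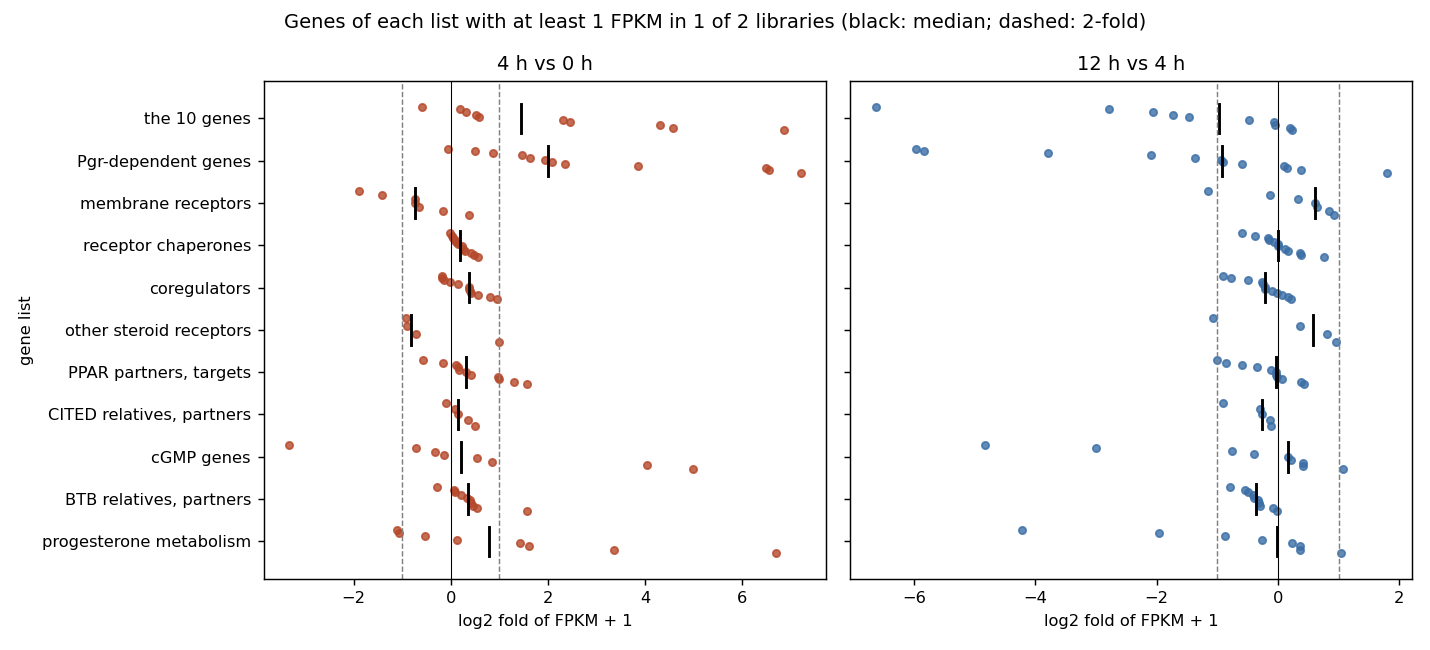
Log2 fold of FPKM + 1 for the genes of each list from 0 to 4 h (left) and from 4 to 12 h (right), 1 point per gene that passed the filter, with medians in black and dashed lines at 2-fold. The medians of the 10 genes (1.44) and of the 12 Pgr-dependent genes (2.01) lie to the right on the left panel, and all coregulators and chaperones lie between the dashed lines.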

How the data were processed

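Granulosa cell RNA of 3 times, with 1 library each, was analysed. The authors deposited FPKM of 34535 RefSeq isoforms with bounds and a standard deviation score per estimate, per the file headers. The upper bound equals the value plus 2 standard deviations in every estimate not marked as failed; 12 were so marked, 0 of them for these genes. CASAVA 1.8, TopHat2 2.1.1, Cufflinks 2.2.1 and mm10 come from the submitters' processing notes, without role; strandedness is not stated. No exon of another GENCODE gene overlaps in position, on either strand, with an exon of any of the 10. Likeness of sequence to genes elsewhere was not examined.

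Isoforms were matched by accession to GRCm38.p6 RefSeq (34169) or GENCODE (193); the 173 without either were dropped. Gene levels are sums over isoforms with half-widths combined as the root of summed squares, which assumes independent estimates. Depth was fitted so that low values became whole fragments (70.0% to 71.7% within 0.1). The gene list, the other lists, the motifs and the rules were chosen with earlier results of these data known. Named genes are the 10, up to 4 per list with the largest fold in any comparison, and the 5 nearest to Pgr; the AP-2 genes, Lhx2, Prkg1, Srd5a1, Vegfa and Epas1 were added after their values were seen. The fold rule and the search for nearest genes were tested on simulated data, without a difference of scale between libraries. The other steps were not tested in this way. A result on another gene is not reported here. Python 3.11.15, numpy 2.4.6 and pandas 2.3.3 were used.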

Additional observations from a re-analysis of the deposited data

How the results depend on the processing

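The counts of called genes were 5, 5 and 3 for 0 to 4 h, 4 to 12 h and 0 to 12 h. They stayed within 1.5 times with a pseudocount of 0.1 or 5 FPKM, with the filter dropped or set to 5 FPKM, with 3 other scalings (that to the protein-coding sum was chosen after seeing the data), the main isoform, a 1.5-fold threshold and the demand that deposited bounds lie apart. The exception was a 4-fold threshold, under which 3 genes were called from 4 to 12 h, without Cited4 and Pparg. Prkg2 lost its call from 0 to 12 h with a pseudocount of 5 FPKM or a 4-fold threshold. At 1.5-fold Nrip1 (0 to 4 h) and Pparg (0 to 12 h) were also called, both lower, and Pparg likewise by its main isoform. The 0 to 4 h folds of Pgr, Cited4 and Prkg2 moved most with the pseudocount: with 5 FPKM they were 4.78, 3.63 and 3.12, and with 0.1 FPKM Pgr reached 8.89 and Prkg2 5.41. Of 180 recomputed log2 folds of single genes 146 stayed within the range of their bounds, 34 moved outside it and 0 called values changed sign. The 146 include the main-isoform values of every gene but Pparg. Pparg is the 1 gene with several isoforms, so for the others that setting could change nothing. No paired analysis was possible because each time has 1 library. The lack of replicates limits all values.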

Other observations

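Among other steroid hormone receptors, the estrogen receptor gene Esr2 was at 102 FPKM at 0 h, 54.3 at 4 h and 106 at 12 h, and Esr1 at 4.36, 1.84 and 3.96. Neither was called on the deposited scale (log2 folds from 0 to 4 h of -0.90 for Esr2 and -0.92 for Esr1), and the 0 h and 4 h bounds of Esr2 overlap, at 63.3 to 142 and 42.8 to 65.8 FPKM. On libraries brought to their mean sum both were called lower at 4 h and higher from 4 to 12 h. The glucocorticoid receptor Nr3c1, which recognises the same DNA element as the progesterone receptor, was at 2.68, 6.30 and 2.47 FPKM, lower at 12 h than at 4 h on the deposited scale (log2 fold -1.07) but not on the rescaled libraries.

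Of 11 relatives and partners of Zbtb16 10 passed the filter and 1 was called, Bcl6, another zinc finger repressor of the BTB family. It was at 3.26 FPKM at 0 h, 11.7 at 4 h and 10.9 at 12 h, higher at both later times than at 0 h, with log2 folds of 1.57 and 1.49. Zbtb7a was at 9.83, 14.7 and 8.04 FPKM, Zbtb7b at 11.8, 15.7 and 10.9, and Zbtb20 at 3.03, 3.20 and 1.87.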
